A study of Mus musculus with 15 samples.

Results

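A set of 9 genes that mark the birth and layer identity of cortical glutamatergic neurons was followed through mouse brain tumours of 2 models: Neurog2, Eomes, Neurod1, Neurod2, Neurod6, Tbr1, Fezf2, Bcl11b and Dcx. They were chosen by name, and all 9 stood among the 24421 genes of the tables. The tumours were HGG (high-grade glioma) and EPN (ependymoma), profiled by stranded RNA sequencing in 15 libraries. There were 3 libraries in each of 5 groups: the HGG groups Sox9-LOF (LOF, loss of function) and Sox9-GOF (GOF, gain of function) with their shared HGG control, and EPN Sox9-GOF with its EPN control. The sources used here do not say how the tumours or the changes of Sox9 function were made, nor the age of the mice. The labels do not say whether replicates came from separate animals, so the spread behind each p-value may be technical.

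In the developing dorsal forebrain, radial glia divide into intermediate progenitors and these into projection neurons. Neurog2, a proneural basic helix-loop-helix (bHLH) factor, starts this programme, the T-box factor Eomes (also known as Tbr2) marks the intermediate progenitors, and the bHLH factors Neurod1, Neurod2 and Neurod6 act in newborn and maturing neurons. Tbr1, another T-box factor, and the zinc finger factors Fezf2 and Bcl11b (also known as Ctip2) set deep layer identities, while Dcx (doublecortin) binds microtubules in migrating young neurons. Several of the genes are used elsewhere too: Bcl11b in striatal projection neurons and T cells, and Eomes in T and NK cells.

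The bHLH factors bind the E-box, whose letters are CANNTG, so the promoters of the 4 members that hold one are shown. The window searched ran from 250 bases before to 50 bases after each RefSeq start site (build GRCm38.p6), and all 9 members matched, Dcx with 2 start sites. Below are the 250 bases before the start, with E-boxes in capitals, from chr2:61804203-61804452 (plus strand) for Tbr1, chr2:79456637-79456886 (minus) for Neurod1, chr11:98329646-98329895 (minus) for Neurod2 and chr6:55681264-55681513 (minus) for Neurod6.
Tbr1: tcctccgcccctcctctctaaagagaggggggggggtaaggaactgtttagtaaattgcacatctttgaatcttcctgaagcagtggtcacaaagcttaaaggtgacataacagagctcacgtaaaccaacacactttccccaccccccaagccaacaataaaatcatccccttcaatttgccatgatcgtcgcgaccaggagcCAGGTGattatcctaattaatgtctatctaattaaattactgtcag
Neurod1: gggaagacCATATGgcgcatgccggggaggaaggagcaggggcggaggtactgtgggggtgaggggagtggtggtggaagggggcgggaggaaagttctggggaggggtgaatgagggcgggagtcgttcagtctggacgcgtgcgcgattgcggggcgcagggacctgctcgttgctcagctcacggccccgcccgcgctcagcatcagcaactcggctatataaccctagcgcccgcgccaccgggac
Neurod2: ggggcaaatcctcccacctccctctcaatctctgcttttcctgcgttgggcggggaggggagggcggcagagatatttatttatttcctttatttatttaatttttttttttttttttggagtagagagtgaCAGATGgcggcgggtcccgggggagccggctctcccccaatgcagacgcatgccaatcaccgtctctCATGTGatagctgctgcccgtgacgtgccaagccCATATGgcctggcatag
Neurod6: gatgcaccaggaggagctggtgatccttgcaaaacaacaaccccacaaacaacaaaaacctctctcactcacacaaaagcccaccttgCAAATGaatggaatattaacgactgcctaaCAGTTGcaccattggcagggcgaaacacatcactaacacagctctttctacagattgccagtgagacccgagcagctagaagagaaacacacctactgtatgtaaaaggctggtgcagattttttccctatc
The Neurod2 promoter held 3 E-boxes, starting 118, 51 and 17 bases before the start, and the Neurod6 promoter held 2. Tbr1 and Neurod1 held 1 each, and Neurog2, Eomes, Fezf2, Bcl11b and Dcx held none in this window. An E-box stood in 72.3% of 32851 mouse promoter windows of the same length, so its presence in 4 of 9 members sets none of them apart. Of the E-boxes, CAGATG stood in 1 member (Neurod2) and in 17.2% of windows, and CATATG in 2 members (Neurod1 and Neurod2) and in 3.91% of windows. The half-site AGGTGT of T-box factors was found in 2 members, Neurod1 and Neurod6, and in 13.7% of windows. ACAAAG, a core that SOX factors can bind, was in 2 members, Tbr1 and Dcx, against 18.7% of windows, and ACAATG was in 0 members, against 12.6%. Both strands were searched, and CAGATG and CATATG are themselves E-boxes.

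Libraries held 4665428 to 14119140 reads in genes, and the shallowest was HGG control 2. All 12 general neuron markers were read in each of the 15 libraries. Sox9 itself had 739, 579 and 395 normalized counts in the libraries labelled Sox9-LOF and 1275, 1537 and 1391 in HGG Sox9-GOF, against 218, 285 and 310 in HGG control. It had 2055, 1834 and 2692 in EPN Sox9-GOF, against 1045, 1040 and 1189 in EPN control. All 3 libraries labelled Sox9-LOF thus lay above, not below, all HGG controls in Sox9 transcript. The label names function, which transcript counts do not measure, and Sox9 function in these libraries was not tested. Any direction drawn from that group is a direction of the label only. HGG controls were the least alike of the groups: their log2 profiles correlated at 0.819 to 0.861 across genes, against 0.930 to 0.965 in the other groups. A normalized count is a read count divided by the size factor of its library, here with 1 scale over all 15 libraries.

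The level of Neurog2, at the top of the programme, was near the limit of detection. It had 0 reads in all 3 EPN Sox9-GOF libraries and 6, 0 and 0 in EPN control. In HGG it had 2, 1 and 3 reads in the libraries labelled Sox9-LOF and 2, 0 and 2 in Sox9-GOF, against 1, 7 and 5 in control. The 0 reads in EPN Sox9-GOF have a 95% exact Poisson interval of 0 to 0.0993 RPM (reads scaled to library size), and EPN control gave 0.242 RPM (0.0888 to 0.527). The intervals overlap, which is not itself a test of a difference. All 6 reads came from EPN control 1, and EPN controls 2 and 3 held 0, so no difference between the groups can be claimed. Intervals and floors cover counting error only.

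Eomes was also rare, with 4, 6 and 1 reads in EPN Sox9-GOF and 3, 19 and 1 in EPN control. Its reads were 5, 1 and 8 in the libraries labelled Sox9-LOF and 11, 4 and 6 in HGG Sox9-GOF, against 20, 0 and 18 in HGG control. All groups overlapped, and HGG control held both the most and the fewest reads. Across libraries Eomes followed the 14 measured T and NK cell markers, with a Pearson r of 0.85 over the 9 HGG libraries and 0.88 over deviations from the group means, and it followed general neuron markers at 0.083 and 0.080. The T cell gene Cd3e encodes a CD3 chain of the T cell receptor complex. In HGG controls 1 and 3, where Eomes was highest in HGG, Cd3e had 105 and 266 normalized counts. In control 2, where Eomes had 0 reads, Cd3e had 2. How much of the Eomes signal came from lymphoid cells was not tested.

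Neurod1, which acts as progenitors leave the cell cycle, was low throughout. Its normalized counts were 76.0, 28.4 and 8.90 in the libraries labelled Sox9-LOF and 27.3, 22.0 and 44.7 in HGG Sox9-GOF, against 1.59, 20.502 and 61.8 in HGG control. In EPN they were 3.61, 0 and 0 with Sox9-GOF, against 14.8, 6.76 and 24.9 in control. The EPN groups did not overlap, with 5 reads in all in EPN Sox9-GOF, or 0.135 RPM (95% exact Poisson interval 0.0437 to 0.314), against 36 reads, or 1.45 RPM (1.02 to 2.01), in EPN control. HGG control alone spanned a 38.9-fold range.

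Neurod2, a factor of maturing glutamatergic neurons, had normalized counts of 362, 110 and 54.5 in the libraries labelled Sox9-LOF and 202, 99.8 and 320 in HGG Sox9-GOF, against 19.0, 262 and 508 in HGG control. In EPN it had 24.5, 8.72 and 0.960 with Sox9-GOF, against 37.0, 46.2 and 46.7 in control. Neurod6, its relative in the same neurons, had 105, 70.4 and 120 in the libraries labelled Sox9-LOF and 232, 55.0 and 175 in HGG Sox9-GOF, against 17.5, 121 and 352 in HGG control. In EPN it had 6.49, 7.85 and 0.960 with Sox9-GOF, against 13.7, 32.7 and 65.3 in control. For both genes every EPN Sox9-GOF library lay below every EPN control, whereas in HGG the controls enclosed all treated libraries.

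Tbr1, the layer 6 factor, had 427, 128 and 334 in the libraries labelled Sox9-LOF and 294, 149 and 210 in HGG Sox9-GOF, against 35.7, 178 and 806 in HGG control. In EPN it had 15.1, 14.8 and 3.84 with Sox9-GOF, against 52.8, 54.1 and 120 in control. Again HGG controls 1 and 3 lay outside the HGG treated libraries on either side, and the EPN groups did not overlap.

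Fezf2, the factor that specifies subcortically projecting neurons of layer 5, had 70.1, 85.1 and 194 in the libraries labelled Sox9-LOF and 101, 37.4 and 150 in HGG Sox9-GOF, against 17.5, 137 and 295 in HGG control. In EPN it had 27.4, 13.1 and 6.72 with Sox9-GOF, against 21.1, 23.7 and 38.9 in control, and the groups overlapped. Bcl11b, which acts with Fezf2 in those neurons, had 160, 190 and 277 in the libraries labelled Sox9-LOF and 258, 278 and 299 in HGG Sox9-GOF, against 69.8, 94.3 and 277 in HGG control. In EPN it had 192, 72.4 and 240 with Sox9-GOF, against 146, 96.9 and 117 in control. Over all 15 libraries Bcl11b spanned a 4.28-fold range, against 44.0-fold for Fezf2 and 122-fold for Dcx, and in EPN it overlapped between the groups.

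Dcx, the marker of migrating young neurons, had 483, 404 and 392 in the libraries labelled Sox9-LOF and 141, 1634 and 435 in HGG Sox9-GOF, against 484, 437 and 255 in HGG control. In EPN it had 20.9, 41.9 and 13.4 with Sox9-GOF, against 75.0, 80.0 and 85.6 in control. Every HGG library lay above every EPN library, and HGG Sox9-GOF 2 lay far above the rest. The HGG control with the most Tbr1 had the least Dcx, and the one with the least Tbr1 had the most Dcx.

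**Figure D1:**
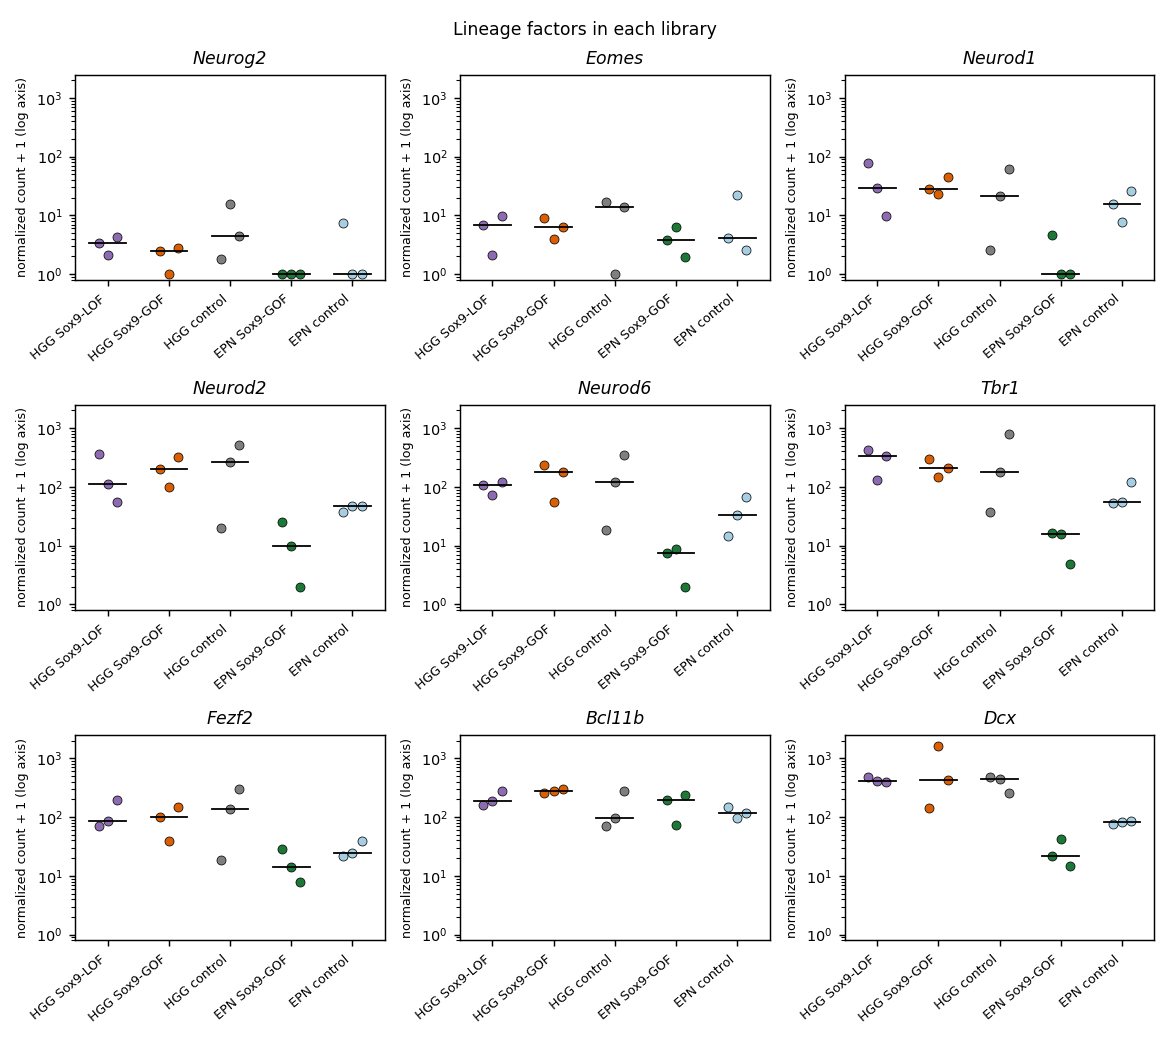
Normalized count + 1 (log axis) of each of the 9 genes in each library, by group; each point is a library and the line is the group median. Tbr1 lies between 3.84 and 15.1 counts in EPN Sox9-GOF and between 52.8 and 120 in EPN control, while HGG control spans 35.7 to 806.

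Compared per length, as RPKM (reads per kilobase of exon and per library size), Neurod2, Neurod6 and Tbr1 were among the highest members in HGG, and Eomes and Neurog2 the lowest. In HGG Sox9-GOF the means were 7.64 ± 4.37 RPKM for Neurod6, 7.07 ± 3.76 for Neurod2, 6.34 ± 6.88 for Dcx, 4.25 ± 1.33 for Tbr1, 3.69 ± 0.320 for Bcl11b, 3.38 ± 1.98 for Fezf2 and 1.23 ± 0.469 for Neurod1 (SD, n = 3). Neighbours among the first 6 of this order did not differ beyond their SDs. In the libraries labelled Sox9-LOF the order ran from Neurod2 (5.97 ± 5.67) over Tbr1 (5.69 ± 2.99), Neurod6 (4.81 ± 1.19), Fezf2 (3.97 ± 2.18), Dcx (3.55 ± 0.499) and Bcl11b (2.69 ± 0.704) to Neurod1 (1.48 ± 1.37). HGG control gave 8.61 ± 7.92 RPKM for Neurod2, 7.80 ± 8.09 for Neurod6, 6.34 ± 7.58 for Tbr1, 5.06 ± 4.65 for Fezf2, 3.21 ± 1.02 for Dcx, 1.86 ± 1.41 for Bcl11b and 1.05 ± 1.15 for Neurod1, and in HGG control the SD was close to or above the mean for Neurod1, Neurod2, Neurod6, Tbr1 and Fezf2. Eomes and Neurog2 stayed under 0.3 RPKM in the mean of every group.

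In EPN the order was another one. Bcl11b led in EPN Sox9-GOF with 1.99 ± 1.02 RPKM, followed by Fezf2 with 0.5003 ± 0.346, Neurod2 with 0.353 ± 0.377, Neurod6 with 0.229 ± 0.163, Tbr1 with 0.198 ± 0.114, Dcx with 0.193 ± 0.1099, Eomes with 0.0699 ± 0.0489 and Neurod1 with 0.0433 ± 0.0749. In EPN control Neurod6 (1.75 ± 1.26), Bcl11b (1.48 ± 0.317), Tbr1 (1.39 ± 0.736) and Neurod2 (1.38 ± 0.179) lay within each other's spread, ahead of Fezf2 (0.921 ± 0.338), Dcx (0.635 ± 0.0520) and Neurod1 (0.574 ± 0.348). The step from Bcl11b to Fezf2 in EPN Sox9-GOF was the one gap between neighbours in that group that exceeded the summed SDs.

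The comparison of EPN Sox9-GOF with EPN control asks what gain of Sox9 function went with in ependymoma. Of the 9 members, 5 lay lower in all 3 EPN Sox9-GOF libraries than in all 3 EPN controls: Neurod1, Neurod2, Neurod6, Tbr1 and Dcx. Neurod1 was too low for limma, the main test, and the other 4 did not pass it. Limma was fitted to log2(normalized count + 1) of all genes that averaged 10 or more, adjusted by Benjamini-Hochberg and with 0.05 as the threshold. Tbr1 differed by -2.68 on the log2 scale (SE 0.61, adjusted p = 0.152), which is 0.156-fold. Neurod6 differed by -2.61 (SE 0.82, adjusted p = 0.205), Neurod2 by -2.44 (SE 0.89, adjusted p = 0.264) and Dcx by -1.72 (SE 0.44, adjusted p = 0.167) by limma. Fezf2 differed by -0.89 (SE 0.59, adjusted p = 0.536) and Bcl11b by 0.38 (SE 0.46, adjusted p = 0.752).

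Limma called 0 of 14591 genes in this comparison, or 0%, and 0 of the 6 members tested, with 4 of the 6 and 2196 of all genes at an unadjusted p under 0.05; edgeR also called 0 genes. Neurod1, Eomes and Neurog2 fell under the filter on low values. Groups lay apart in the lower direction for 12.5% of all tested genes, and for 4 of the 6 tested members. DESeq2 called Tbr1 (-2.69, SE 0.65, adjusted p = 0.00267), Dcx (-1.62, SE 0.51, adjusted p = 0.0310) and Neurod6 (-2.81, SE 0.91, adjusted p = 0.0389) lower, where it called 4.95% of all genes lower. Exact two-sided permutation tests gave p = 0.1 for Neurod1, Neurod2, Neurod6, Tbr1 and Dcx, the smallest p that 3 against 3 libraries allow. In bulk tissue, fewer neurons and less RNA of a gene per neuron cannot be told apart.

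**Figure D2:**
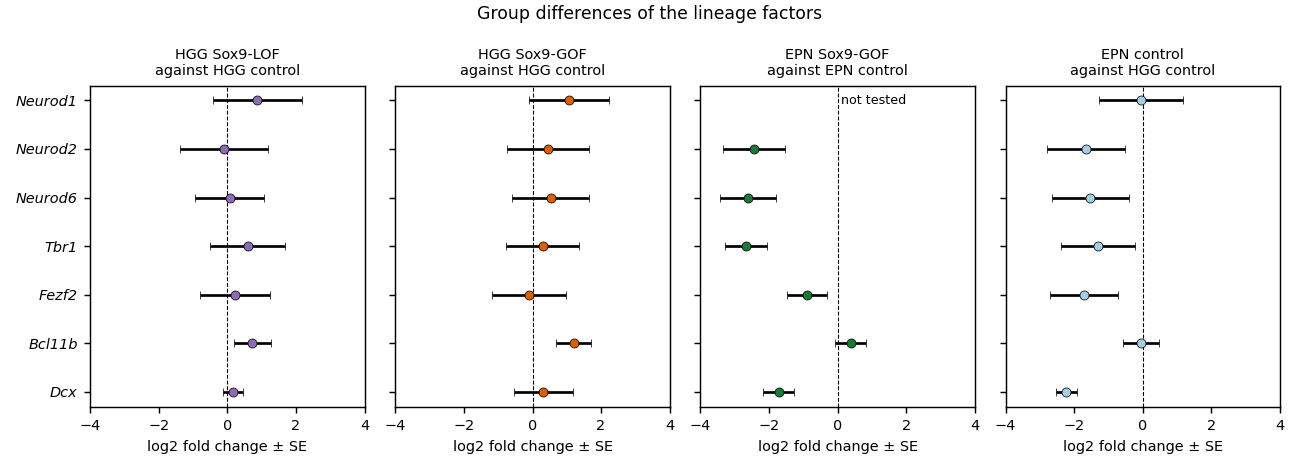
Log2 fold change with its SE (limma) of the 7 members that pass the filter in at least 1 comparison, in 4 comparisons of 3 against 3 libraries. In EPN Sox9-GOF, Tbr1, Neurod2, Neurod6 and Dcx lie between -1.72 and -2.68, while in both HGG comparisons the SEs of Tbr1, Neurod1, Neurod2, Neurod6 and Fezf2 exceed 1.

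Other neuronal genes lay in the same direction in these EPN libraries. All 12 general neuron markers were lower in EPN Sox9-GOF without overlap (median log2 fold change -2.00, against 0.04 over all genes), among them the synaptic vesicle gene Syp (-1.80, SE 0.39) and the RNA-binding gene Elavl4 (-1.97, SE 0.47). Of 12 tested glutamatergic neuron genes 11 had a negative fold change and 8 lay lower without overlap, with a median of -1.66. Examples are Lamp5 (-3.26, SE 0.65), which marks upper layer neurons, and Camk2a (-2.25, SE 0.57), a synaptic kinase. All 13 genes of neuron migration and microtubules had a negative fold change, 8 of them without overlap (median -0.77), including Reln (-1.69, SE 0.34), the secreted guide of cortical layering, and Cdk5r1 (-1.70, SE 0.51), the activator of CDK5. GABAergic neuron markers, which belong to another neuron class, had 8 of 9 tested members negative and a median of -2.08, with Gad1, an enzyme of GABA synthesis, at -2.51 (SE 0.73). None of these genes passed limma (adjusted p of 0.147 to 0.193 for those named).

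Layer genes were more mixed. Among deep layer genes 8 of 12 had a negative fold change in EPN Sox9-GOF (3 without overlap, median -0.24), such as Pcp4 (-2.61, SE 0.85) and Etv1 (-0.68, SE 0.21). Among upper layer genes 7 of 12 did (median -0.27), with Rorb of layer 4 at -2.12 (SE 0.47) and the semaphorin receptor Plxnd1 at 0.80 (SE 0.26). Dorsal progenitor and proneural genes had 7 of 11 negative (median -0.35), with the dorsal homeobox gene Emx1 at -2.10 (SE 0.50). Other neuronal bHLH factors had 2 of 4 negative. Glial lists lay lower with the neuronal ones in the same libraries: 10 of 10 astrocyte markers (median -1.55) and 11 of 12 oligodendrocyte lineage markers (median -1.41) were negative. The summed counts of astrocyte markers were 9017 to 30898 in EPN Sox9-GOF and 40272 to 47183 in EPN control, and those of oligodendrocyte lineage markers were 7126 to 28278 and 22978 to 41455. The part of cell composition in the members' difference was not tested.

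Set against the neuron markers of each library, more of the members overlapped between the groups. Summed counts of the 12 general neuron markers were 2391 to 3872 in EPN Sox9-GOF and 6883 to 13717 in EPN control. Per 1000 of these counts, a ratio chosen after the values were seen, Dcx had 5.40 to 12.8 in EPN Sox9-GOF and 6.24 to 11.6 in EPN control, which overlap, and so did Neurod2 (0.402 to 6.33 against 3.403 to 6.71) and Neurod6 (0.402 to 2.41 against 1.96 to 4.76). Tbr1 still lay lower in this ratio, at 1.61 to 4.55 in EPN Sox9-GOF and 7.55 to 8.73 in EPN control, a ratio of means of 0.417. Neurod1 also lay lower, at 0 to 0.931 against 0.982 to 2.11. The nearest libraries, EPN Sox9-GOF 1 and EPN control 2, held 5 and 6 reads of it, so this gap lies within counting error. Bcl11b lay higher, at 22.2 to 100.4 in EPN Sox9-GOF and 8.51 to 20.8 in EPN control, a ratio of means of 3.96. Its counts themselves overlapped, at 72.4 to 240 in EPN Sox9-GOF and 96.9 to 146 in EPN control. The summed markers were lower in EPN Sox9-GOF, so a gene with unchanged counts rises in this ratio. The sum also weighs abundant markers most: in EPN Sox9-GOF 3, Map2 gave 1366 of the 2391 counts. Map2 differed by -0.77 (SE 0.20) in EPN Sox9-GOF, less than the list median of -2.00. The ratios of Tbr1 and Bcl11b thus depend on this weighting, and ratios to single markers were not tested. With 3 libraries a group no exact test of these ratios can go below p = 0.1.

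**Figure D3:**
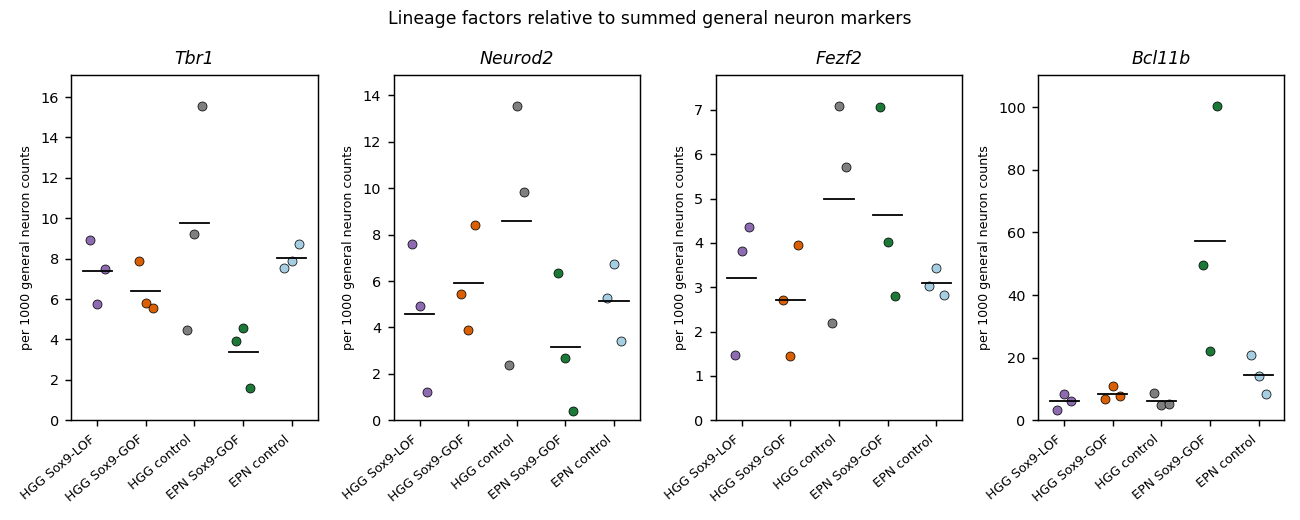
Normalized counts of Tbr1, Neurod2, Fezf2 and Bcl11b per 1000 summed counts of 12 general neuron markers, by group; each point is a library and the line is the mean of 3. Bcl11b lies at 22.2 to 100.4 in EPN Sox9-GOF, above its 8.51 to 20.8 in EPN control, and Tbr1 at 1.61 to 4.55, below its 7.55 to 8.73. The summed markers are lower in EPN Sox9-GOF, and the Bcl11b counts themselves overlap between the EPN groups. The sum weighs abundant markers such as Map2 most.

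In HGG Sox9-GOF against HGG control no member differed beyond the spread of the controls. Bcl11b, a deep layer and striatal factor, came closest, at 1.20 (SE 0.51, limma adjusted p = 0.228). The fold changes of the bHLH factors were 1.06 (SE 1.16) for Neurod1, 0.45 (SE 1.20) for Neurod2 and 0.53 (SE 1.12) for Neurod6. Tbr1 had 0.30 (SE 1.05), Fezf2 had -0.09 (SE 1.08) and Dcx had 0.32 (SE 0.85). By limma 0 of 7 tested members and 0 of 15092 genes (0%) were called, with 0 members and 3420 genes at an unadjusted p under 0.05. DESeq2 called 7.29% of genes higher and 7.75% lower but 0 members, and edgeR 0 members, with lowest adjusted p-values of 0.292 and 0.316 among the members. Groups did not overlap for 30.5% of genes and for 0 of the 7 tested members.

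Without HGG control 1, the signs of Tbr1, Neurod1, Neurod2 and Neurod6 in HGG Sox9-GOF turned negative, at -0.83, -0.23, -0.95 and -0.63. With all 3 controls, 11 of 12 general neuron markers had a positive fold change (median 0.66), such as Map2 of dendritic microtubules (1.06, SE 0.32), and 12 of 14 glutamatergic neuron genes did (median 0.97), led by the NMDA receptor subunits Grin2b (3.54, SE 1.05) and Grin2a (2.94, SE 0.90). Without HGG control 1, 5 of 12 general neuron markers were positive (median -0.28), and 6 of 14 glutamatergic neuron genes (median -0.081). With all controls, 10 of 10 astrocyte markers (median 1.12) and 10 of 10 microglia markers (median 0.79) were positive too, and without HGG control 1 these medians were 0.43 and 0.59. Striatal neuron markers had 9 of 9 positive with a median of 1.13, and 5 did not overlap, including the opioid precursor Penk (3.44, SE 0.75). Their summed counts were 2343 to 3267 in HGG Sox9-GOF and 785 to 1852 in HGG control. Dorsal progenitor and proneural genes had 7 of 11 negative (median -0.65), with Hes6 at -1.22 (SE 0.32). None was called, and the overall median was 0.03.

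In the libraries labelled Sox9-LOF against HGG control, too, every member overlapped the controls. The log2 fold changes were 0.87 (SE 1.303) for Neurod1, -0.10 (SE 1.28) for Neurod2, 0.06 (SE 1.01) for Neurod6, 0.59 (SE 1.09) for Tbr1, 0.21 (SE 1.02) for Fezf2, 0.72 (SE 0.54) for Bcl11b and 0.16 (SE 0.29) for Dcx. Limma adjusted p-values ran from 0.526 to 0.982, and 0 of 7 tested members and 0 of 14861 genes (0%) were called, with 0 members and 2564 genes at an unadjusted p under 0.05. DESeq2 called 9.06% of genes but 0 members, and edgeR 0 members, with lowest adjusted p-values of 0.684 and 0.671 among the members. Groups did not overlap for 24.5% of all genes. Without HGG control 1, Tbr1, Neurod1, Neurod6 and Fezf2 had negative signs, at -0.54, -0.39, -1.11 and -0.95. With all controls the general neuron markers were positive in 12 of 12 (median 0.96), and without HGG control 1 in 6 of 12 (median 0.055). Astrocyte markers were positive in 10 of 10 (median 1.29), and without that library in 8 of 10 (median 0.67). Striatal neuron markers were positive in 10 of 10 (median 2.51, 5 without overlap), such as Penk (4.04, SE 1.20), and without it also in 10 of 10 (median 1.72). Bcl11b, which striatal projection neurons also use, was 160 to 277 counts there. The library labelled Sox9-LOF 3 held most striatal signal, with 17324 summed counts, against a low of 2458 among the libraries labelled Sox9-LOF.

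The controls of the models were compared to see how the models differ in their control tumours. Dcx was lower in EPN control, at 75.0 to 85.6 counts, than in HGG control, at 255 to 484, by -2.22 on the log2 scale (SE 0.30, limma adjusted p = 0.00794), which is 0.214-fold, in 3 of 3 libraries. It was the only one of 7 tested members called, where limma called 15.3% of 15105 genes, 5.83% lower and 9.51% higher. Without EPN control 2 its limma adjusted p was 0.0512, and over the other alternatives it ran up to 0.0449. The other members had negative fold changes that did not pass: Fezf2 -1.71 (SE 1.00), Neurod2 -1.66 (SE 1.15), Neurod6 -1.53 (SE 1.13), Tbr1 -1.30 (SE 1.08), Bcl11b -0.05 (SE 0.53) and Neurod1 -0.05 (SE 1.21). Groups lay apart in the lower direction for Dcx alone among the 9, and for 18.4% of tested genes.

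DESeq2 also called Neurod2 (-2.63, adjusted p = 0.0240) and Fezf2 (-2.46, adjusted p = 0.0298) lower between the controls, where it called 14.6% of genes lower. Limma called the same pair and Dcx once HGG control 1 was left out, where it called 24.2% of genes (Neurod2 -3.06, adjusted p = 0.00742, and Fezf2 -2.86, adjusted p = 0.0140). Among migration genes, 3 passed limma lower in EPN control and 2 higher: the tubulin gene Tubb2b (-2.23, SE 0.25, adjusted p = 0.00515), Dab1 of the reelin pathway (-2.10, SE 0.38, adjusted p = 0.0181) and Reln fell, and the semaphorin gene Sema3c (3.31, SE 0.30, adjusted p = 0.00371) and its receptor component Nrp1 rose. Deep layer genes had 3 of 12 called higher, Zfpm2, Ctgf and Tshz2. Of general neuron markers all 12 had a negative fold change (median -1.13) and 1, Elavl3, was called (-1.74, SE 0.37, adjusted p = 0.0280). Of these 9 calls, Tubb2b and Sema3c held whichever library was left out. In all, 2 to 3 of the 9 held without any 1 EPN control, and 7 without HGG control 2 or 3. Oligodendrocyte lineage markers were 22978 to 41455 summed counts in EPN control and 48377 to 168399 in HGG control.

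The effect of Sox9-GOF (its log2 difference from control) was compared between the models, as the effect in EPN minus the effect in HGG. The difference was negative for all 7 tested members, and 0 passed, where limma called 6.10% of 15088 genes. It was -4.17 for Neurod1 (SE 1.51, adjusted p = 0.108), -2.999 for Tbr1 (SE 1.31, adjusted p = 0.169), -3.17 for Neurod6 (SE 1.48), -2.92 for Neurod2 (SE 1.62), -2.06 for Dcx (SE 1.02), -0.84 for Bcl11b (SE 0.74) and -0.82 for Fezf2 (SE 1.3002). Neurod1 fell under the filter on low values in the EPN comparison and passed it here through its HGG levels. In EPN Sox9-GOF it had 5 reads in all. Both Neurod1 and Tbr1 had an unadjusted p under 0.05, and DESeq2 and edgeR called 0 members, with 16.4% and 4.83% of genes called. Without HGG control 3, where limma called 14.2% of genes, it called Tbr1 (-4.10, adjusted p = 0.0281) and Neurod1 (-5.20, adjusted p = 0.0348). That library held the most Tbr1 (806) and the most Neurod1 (61.8) of the HGG controls. It was the only 1 of 12 libraries whose removal gave a call of any member. Over these 12 fits Tbr1 ran from -4.10 to -1.87 and Neurod1 from -5.20 to -2.90. Among general neuron markers all 12 differences were negative (median -2.50, against -0.049 over all genes), as were all 10 of the astrocyte markers (median -2.67), and Map2 and Elavl4 passed limma. Neither passed limma with a correction for GC content and length (adjusted p = 0.0858 and 0.0797), where 31 genes in all did, nor without EPN control 2, EPN control 3, HGG Sox9-GOF 2 or HGG Sox9-GOF 3 (0.0574 to 0.0683), and Elavl4 did not without HGG Sox9-GOF 1 either (0.0557).

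The members did not form 1 unit across libraries. Tbr1, Neurod1, Neurod2, Neurod6 and Fezf2 varied together: over their 10 pairs, Pearson r of log2(count + 1) ran from 0.58 to 0.94 in the 9 HGG libraries, and from 0.65 to 0.92 over deviations from the group means in all 15. Tbr1 followed the score of the general neuron markers, the mean of their centred log2 values, with r = 0.95 in the HGG libraries and 0.99 over deviations from the group means. For Neurod6 these were 0.87 and 0.93, for Fezf2 0.80 and 0.87, for Neurod2 0.72 and 0.82, and for Neurod1 0.78 and 0.74. Tbr1 was nearly as close to GABAergic neuron markers, at 0.89 and 0.93. All such values share the libraries, their depth and their cell makeup, and are descriptions over few points.

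Dcx stood apart from these 5 within HGG. In the 9 HGG libraries its r with Tbr1 was -0.37, with Neurod6 -0.57 and with Fezf2 -0.49, and with general neuron markers -0.32. One of these libraries, HGG Sox9-GOF 2, lay far above the rest in Dcx. Over all 15 libraries, where HGG lay above EPN, the same values were 0.73, 0.70, 0.60 and 0.79. The r of Dcx with oligodendrocyte lineage markers was 0.30 in the HGG libraries, 0.51 over deviations from the group means and 0.88 over all 15 libraries. Bcl11b followed neurons in HGG (0.79 with general neuron and 0.79 with striatal neuron markers), but its largest value there was with microglia markers (0.92). Over deviations from the group means in all 15 libraries those values were 0.37, 0.50 and 0.14. Whether different cells carry Dcx and the other factors was not tested.

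**Figure D4:**
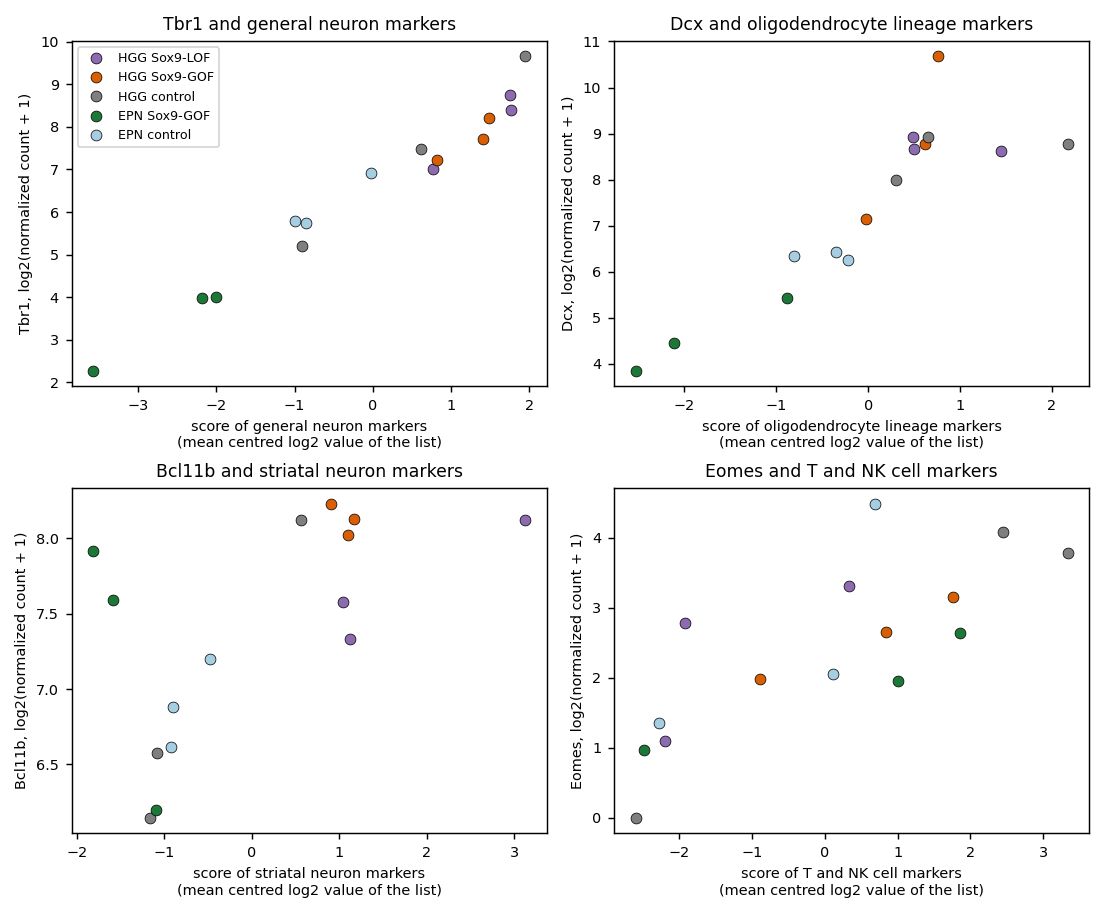
Log2(normalized count + 1) of Tbr1, Dcx, Bcl11b and Eomes against the score of a marker list (the mean centred log2 value of its genes), 1 point per library, coloured by group. Tbr1 runs along the general neuron score in every group (r = 0.99 over deviations from the group means), Eomes along T and NK cell markers (0.88), and Dcx and Bcl11b are looser (0.51 and 0.50).

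Genes whose profile over the 15 libraries was most like the mean of the 7 members with a mean of at least 10 were sought among 15079 others. The closest were Chrm1, a muscarinic receptor (r = 0.996), Mpped1 (0.994), Pla2g4e (0.991), Syp (0.990), Phyhip (0.990), Scn2b (0.990), Rbfox1, E130309D14Rik, Celf5 and Fbxo41 (0.989 each). For single members they were Thy1 (0.990) and Lamp5 (0.989) for Tbr1, A330050F15Rik and Gpr12 (0.946 each) for Neurod1, Plch2 (0.971) and Phyhip (0.967) for Neurod2, and Lingo1 (0.977) for Neurod6. For Fezf2 they were Rprml (0.973) and Cckbr (0.958), for Dcx A330102I10Rik (0.977) and Sh3gl3 (0.964), and for Bcl11b Ldb2 (0.872) and Epha4 (0.840). Bcl11b had the least similar neighbours of the 7.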

How the data were processed

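RNA of mouse brain tumour pieces kept in trizol was purified on RNeasy columns, and stranded TruSeq libraries were made from 300 ng, per the labels' protocols. The submitters' processing notes name STAR 2.5.0a, FastQC 0.11.7, MultiQC 1.11, DESeq2 1.30.1 and mm10; they give no roles, and name no counting tool, strand setting or annotation. The 3 deposited tables, each of 6 libraries and 24421 genes, hold a signal per gene, as the authors scaled it: read counts divided by a size factor per library, as the values show. Reads were recovered as whole multiples of 1 read (100% of values within 0.001) and checked against DESeq2's median of ratios, which gave the same factors. The 27 names that had become dates were kept in the tests and not named, and 0 sample columns were left unused.

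Libraries were grouped and numbered by their titles. The main test was limma 3.58.1 (trended) in R 4.3.3 on log2(value + 1), fitted to all genes that averaged 10 or more, adjusted by Benjamini-Hochberg, threshold 0.05; the fold change of low genes is understated on this scale. Each Sox9 comparison used the deposited scale of its table, and the controls, the difference between models and all levels used recovered reads scaled together over 15 libraries. edgeR 4.0.16 and DESeq2 1.42.0 were run on the recovered reads. RPKM used GENCODE M21 exon lengths. Other alternatives were the pseudocount (8 and 0.5), no filter, TMM scaling, a spread shared by 15 libraries, the replicate number as a block, a GC and length correction, and leaving out each library. The limma code was tested on simulated data. Promoters are from RefSeq tables of GRCm38.p6.

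Replicate numbers run through all groups. Libraries with the same number had deviations from their group means that correlated at 0.18, 0.44 and 0.22 between HGG Sox9-GOF and HGG control. Each exceeded 0.1, but the main test there was not paired. The replicate number entered only as a block among the alternatives. With the block limma called 0 genes in HGG Sox9-GOF, with 3743 at an unadjusted p under 0.05, against 3420 in the main test. In the other comparisons at least 1 pair was under 0.1.

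The members and the 15 other gene lists (177 of 179 genes in all found in the tables) were chosen with earlier results of these data known. Named genes are the 9 members, Sox9, up to 3 genes per list with the smallest p in a comparison, and the nearest profiles; Cd3e, the Reln and Nrp1 calls and genes named from the calls between models were chosen after their values were seen, as was the ratio to neuron markers. Some genes that the rule names are not reported here.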

Additional observations from a re-analysis of the deposited data

Results flagged for a closer look

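The effect of Sox9-GOF differed between EPN and HGG, by the limma test of the difference itself (12 libraries, 3 per group), for Sox9 and 6 genes of the neuronal lists, and for 0 of the 7 lineage factors tested. The difference for Sox9 was -1.39 (SE 0.26, adjusted p = 0.0215), from effects of 1.04 in EPN and 2.40 in HGG. Its mean normalized counts were 1091 in EPN control and 2194 in EPN Sox9-GOF, against 271 in HGG control and 1401 in HGG Sox9-GOF. The effects are thus ratios to unlike control levels. Rorb, a layer 4 factor, differed by -2.99 (SE 0.57, adjusted p = 0.0220), with -2.12 in EPN and 0.84 in HGG. Map2 differed by -1.86 (SE 0.37, adjusted p = 0.0241), with -0.77 in EPN and 1.06 in HGG. Elavl4 differed by -3.13 (SE 0.63, adjusted p = 0.0248), with -1.97 in EPN and 1.14 in HGG, and Map1b, a microtubule-associated protein gene, by -1.57 (SE 0.33, adjusted p = 0.0264), with -0.76 and 0.78. Plxnd1 differed the other way, by 1.93 (SE 0.39, adjusted p = 0.0252), with 0.80 in EPN and -1.15 in HGG. Penk, an opioid precursor gene of striatal neurons, differed by -4.98 (SE 1.298, adjusted p = 0.0481), with -1.52 in EPN and 3.44 in HGG. None of the single effects of these 7 genes passed limma within a model. The calls depend on the processing: with the GC and length correction limma called 31 genes in all and, of these 7, Plxnd1 alone (adjusted p = 0.0482, against 0.0626 to 0.478 for the others). With the replicate block as well it called 0 of the 7, and with the block alone 6, all but Penk. DESeq2 called all 7 and edgeR 6, again without Penk (adjusted p = 0.0758). Of 12 limma fits that each left out 1 library, Penk passed in 2 and the others in 6 to 9, and none passed without EPN control 2, EPN control 3 or HGG Sox9-GOF 3 (adjusted p of 0.0548 to 0.106).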

How the results depend on the processing

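Over all alternatives, 586 values of single members were recomputed: 527 kept their sign and their side of the threshold, 1 lost its call, 9 gained one and 49 changed sign. All 49 changes of sign concerned values that had not passed, and the cause was not tested. With 3 libraries per group, and HGG controls that span up to 38.9-fold, large differences in these genes could also go uncalled. In both HGG Sox9 comparisons the SEs of Tbr1, Neurod1, Neurod2, Neurod6 and Fezf2 exceeded 1 on the log2 scale. In EPN Sox9-GOF, Tbr1 at 0.156-fold did not pass limma.

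In the libraries labelled Sox9-LOF, the log2 fold change of Neurod6 was -0.034 with a pseudocount of 8. By edgeR Tbr1, Neurod6 and Fezf2 had -0.23, -0.76 and -0.41, and by DESeq2 -0.22, -0.75 and -0.39. With the GC and length correction, without and with the replicate block, Neurod2, Neurod6 and Dcx had 0.37, -0.22 and -0.64. Leaving out each library gave -0.54 to 1.70 for Tbr1, -0.39 to 1.89 for Neurod1, -1.50 to 0.84 for Neurod2, -1.11 to 1.03 for Neurod6, -0.95 to 1.06 for Fezf2 and -0.12 to 0.33 for Dcx.

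In HGG Sox9-GOF, edgeR gave -0.60, -0.31 and -0.044 for Tbr1, Neurod2 and Neurod6, and DESeq2 -0.62, -0.33 and -0.071. The GC and length correction, without and with the replicate block, gave 0.36 for Fezf2 and -0.71 for Dcx. Leaving out each library gave -0.83 to 1.40 for Tbr1, -0.23 to 2.09 for Neurod1, -0.95 to 1.39 for Neurod2, -0.63 to 1.498 for Neurod6, -1.25 to 0.75 for Fezf2 and -0.59 to 1.18 for Dcx.

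Between the controls, Neurod1 had 0.015 with a pseudocount of 0.5, and leaving out each library gave -1.32 to 0.98 for Neurod1 and -0.45 to 0.54 for Bcl11b. For the difference between models this gave -1.67 to 0.33 for Fezf2.

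DESeq2 called 3 members, not 0, in EPN Sox9-GOF, and 3, not 1, between the controls. Leaving out each library gave 0 to 3 members between the controls and 0 to 2 for the difference between models. Over all genes DESeq2 called 1339 in the libraries labelled Sox9-LOF, 2260 in HGG Sox9-GOF, 842 in EPN Sox9-GOF, 4396 between the controls and 2468 for the difference, and a spread shared by 15 libraries 1113, 2246, 129, 4217 and 1515. Leaving out each library gave 0 to 6 genes for the libraries labelled Sox9-LOF, 0 to 5 in EPN Sox9-GOF, 368 to 3633 between the controls and 44 to 2135 for the difference. Between the controls the replicate block gave 1142 genes, and with the GC and length correction 1037. For the difference that correction gave 31 genes without the block and 1 with it. The replicate block changed the call of no member in any comparison.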
